A study of Canis lupus familiaris with 2 samples.

Results

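Aminoacyl-tRNA synthetases were examined gene by gene in RNA of MDCK, an established line of dog kidney cells with the columnar shape of a simple epithelium. The genes were taken by symbol from a fixed list of 20 cytosolic synthetase genes, 16 mitochondrial synthetase genes and the 2 scaffold genes AIMP1 and AIMP2. All 38 were found among the 23510 features, and each of the 38 exceeded 1 FPKM in both cultures, as did 11057 features in all. FPKM scales the fragments counted on a gene to the length of its exons and the size of the library, so levels can be compared between genes. The cells were plated on a semipermeable membrane insert in EMEM with fetal calf serum and sampled at day 3, after culture in 2-cm-high medium, with the treatment labelled 2 cm H2O and the sample also described as without pressure, or in 50-cm-high medium, with the treatment labelled 50 cm H2O (2 cm and 50 cm for short). Each medium height is represented by 1 culture. No value has replicates, no difference could be set against replicate error, and no test was made.

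Each synthetase joins 1 kind of amino acid to its tRNA, and translation in the cytosol and in mitochondria is fed by separate sets of these enzymes, all encoded in the nucleus. GARS and KARS are known to serve both compartments from the same gene, and EPRS joins the glutamyl and prolyl enzymes in 1 chain. Several cytosolic enzymes sit with AIMP1 and AIMP2 in the multisynthetase complex, and many cytosolic synthetase genes are known targets of ATF4, the transcription factor that acts when amino acids run short. The enzymes fall into class I and class II, which differ in the fold of their catalytic domain.

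The cultures carried the marker genes of an epithelium. Of 8 epithelial markers, 7 lay above 1 FPKM in both cultures, the exception being CDH16 with 1.96 FPKM at 2 cm and 0.676 FPKM at 50 cm. No fibroblast or endothelial marker reached 1 FPKM, and of the leukocyte markers PTPRC, CD3E and ITGAM were listed at 0 in both while CD14 had 4.82 and 3.77 FPKM. In RNA from a whole culture, fewer cells of a type and less RNA per cell cannot be told apart. Read counts are not given in the files, but among the 574 features detected in each culture at under 0.1 FPKM, the 50-cm value was 1.098 times the 2-cm value, to within 0.2%, for 219. If that ratio is the one given by 1 read in each culture, which the files do not state, a read counted for 9.77% more FPKM at 50 cm.

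The cytosolic synthetase genes were, for the most part, slightly higher in 50-cm-high medium, whereas the mitochondrial genes spread in both directions. The summed level of the 20 cytosolic genes was 1878 FPKM at 2 cm and 2065 FPKM at 50 cm, a ratio of 1.10. The summed level of the 16 mitochondrial genes was 299 and 308 FPKM, a ratio of 1.03. The sum over all features had a ratio of 1.02. No member passed 2-fold in either direction, where 0.389% of all 11057 features were higher and 1.28% lower past that limit. At a limit of 1.2-fold, 7 of 38 members (18.4%) were higher in 50-cm-high medium, against 15.0% of all features, and 2 of 38 (5.26%) were lower, against 16.9%. When FPKM was rescaled to equal sums, 7 members were higher and 4 lower past 1.2-fold.

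Counted by direction alone, 27 of 38 members (71.1%) were higher in 50-cm-high medium, against 52.6% of all features. The direction varied with the level of the features, as the median log2 ratio of 50-cm over 2-cm FPKM was -0.15 in the least abundant of 20 equal bins of features and 0.06 in the most abundant. Among the 2320 features within the span of mean FPKM of the cytosolic synthetases, 40.5 to 281 FPKM, 65.5% were higher and the median log2 ratio was 0.07. Of the 20 cytosolic genes, 16 (80.0%) were higher, with a median log2 ratio of 0.18 and an interquartile range of 0.05 to 0.22. In that span, 16.2% of features were higher past 1.2-fold, compared with 2 of 20 cytosolic genes, and 6.77% were lower past it, compared with 0 of 20. Among the 7987 features within the span of the mitochondrial synthetases, 3.64 to 63.4 FPKM, 52.8% were higher, compared with 9 of 16 mitochondrial genes (56.3%), whose median log2 ratio was 0.05. The mitochondrial median turned negative under quantile normalization and with a minimum of 5 FPKM. The interquartile range of the mitochondrial genes ran from -0.20 to 0.33, and the same range for the features in their span ran from -0.15 to 0.17. Past 1.2-fold, 5 of 16 mitochondrial genes were higher, against 14.7% of features in that span, and 2 of 16 were lower, against 15.0%.

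**Figure D1:**
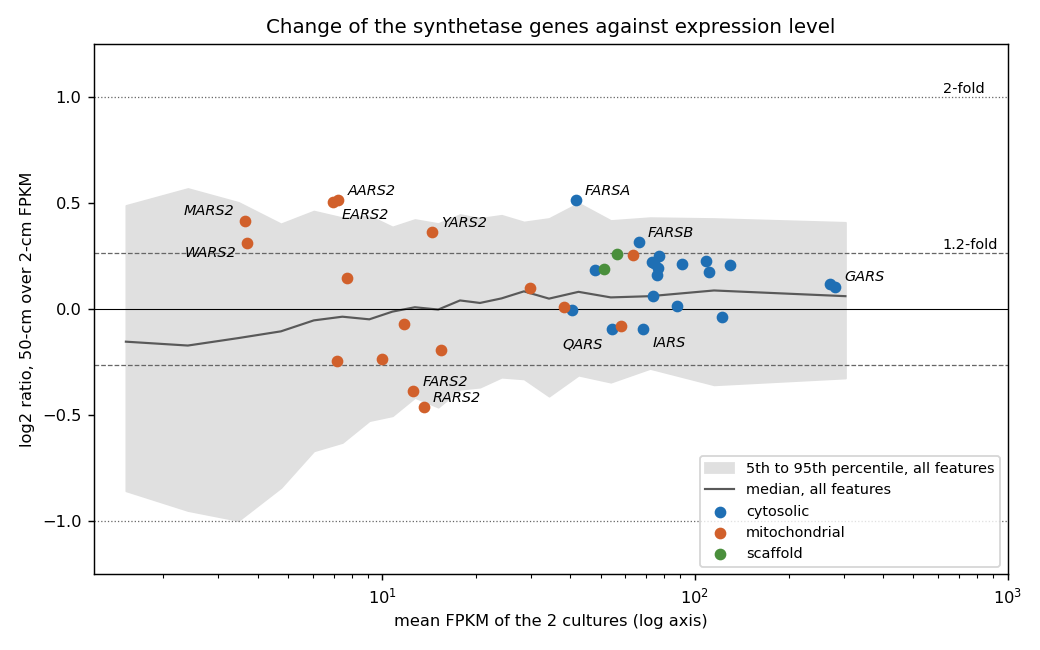
Log2 ratio of 50-cm over 2-cm FPKM (vertical axis) against the mean FPKM of the cultures (horizontal log axis) for the 20 cytosolic (blue) and 16 mitochondrial (orange) synthetase genes and the 2 scaffold genes (green), 1 culture per medium height. The grey band spans the 5th to 95th percentile of all features at each level and the grey line their median, which is below 0 for rare features and above 0 for abundant ones. Most cytosolic genes lie above the line, with IARS, QARS, WARS, LARS and YARS below it and CARS about on it. Mitochondrial genes lie on both sides of it.

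Levels differed far more between the genes than between the cultures. GARS, the glycyl enzyme, had the highest level with 271 FPKM at 2 cm and 291 FPKM at 50 cm. KARS, the lysyl enzyme, followed with 260 and 282 FPKM, so the genes that supply both compartments held the top places in both cultures. Of the next places, WARS (tryptophanyl) had 124 and 121 FPKM. NARS (asparaginyl) had 121 and 139 FPKM, and thus passed WARS in 50-cm-high medium. With no replicates, that exchange of places cannot be set against any error. The least abundant cytosolic genes were LARS (leucyl), with 40.5 and 40.4 FPKM, and FARSA, with 34.3 and 49.0 FPKM. The mitochondrial median was 12.4 FPKM at 2 cm and 11.2 FPKM at 50 cm, against cytosolic medians of 71.3 and 80.6 FPKM. VARS2 (valyl) and IARS2 (isoleucyl) were the most abundant mitochondrial genes and reached the level of the lower cytosolic ones. MARS2 (methionyl), WARS2 (tryptophanyl) and EARS2 (glutamyl) had the lowest mean levels of all 38 genes.

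**Figure D2:**
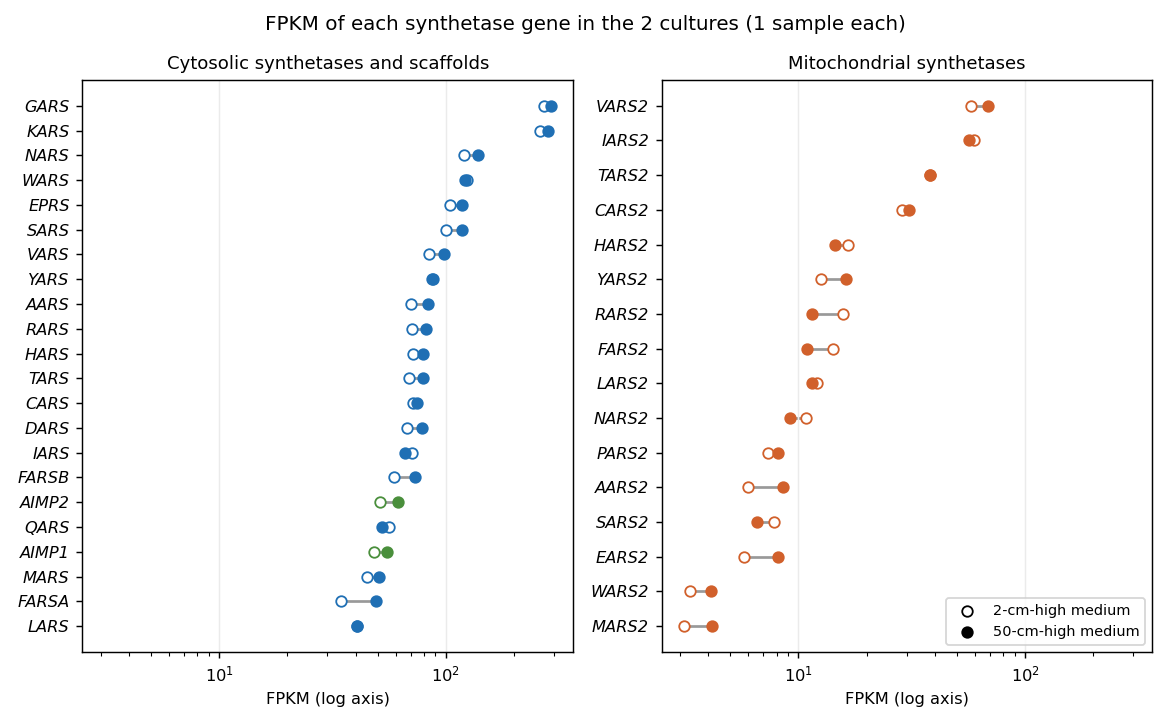
FPKM (horizontal log axis) of the 38 genes in 2-cm-high medium (open circles) and 50-cm-high medium (filled circles), 1 sample each, ordered by mean FPKM, with cytosolic genes in blue, scaffolds in green and mitochondrial genes in orange. GARS and KARS stand above all others, and the mitochondrial genes run from about 3.12 to 68.9 FPKM.

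Among cytosolic genes, both subunits of phenylalanyl-tRNA synthetase had the highest ratios. FARSA, the alpha subunit, had 34.3 FPKM at 2 cm and 49.0 FPKM at 50 cm, a ratio of 1.43 and rank 364 from the top among the 11057 features. FARSB, the beta subunit, had 59.0 and 73.3 FPKM, a ratio of 1.24. They were the only cytosolic genes past 1.2-fold, and under quantile normalization FARSA alone remained past it, with FARSB at a log2 ratio of 0.25. In the enzyme the subunits work as equal partners, and the FPKM of FARSB was above that of FARSA in both cultures. AARS, the alanyl enzyme, came next with 70.3 and 83.6 FPKM, a log2 ratio of 0.25.

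A broad middle group lay between log2 ratios of 0.10 and 0.23. SARS (seryl) had 100 and 118 FPKM in 2-cm-high and 50-cm-high medium. DARS (aspartyl) had 67.5 and 78.8 FPKM. TARS (threonyl) had 68.5 and 79.7 FPKM. These were 16.3% to 17.1% higher in 50-cm-high medium. VARS (valyl) had 84.5 and 97.9 FPKM, RARS (arginyl) 71.2 and 81.4 FPKM, and HARS (histidyl) 71.4 and 79.7 FPKM. EPRS had 104 and 118 FPKM, and MARS (methionyl) 44.8 and 50.9 FPKM. NARS, KARS and GARS, described above, belong to the same group. CARS (cysteinyl), with 71.9 and 74.99 FPKM, and YARS (tyrosyl), with 87.2 and 88.0 FPKM, lay close to a ratio of 1. CARS turned to the lower side under quantile normalization, and YARS under all 3 other scalings tried, which were recentring on the median of all features, rescaling to equal sums and quantile normalization.

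The remaining 4 cytosolic genes were lower in 50-cm-high medium on the deposited scale. IARS, the isoleucyl enzyme, had 70.8 FPKM at 2 cm and 66.3 FPKM at 50 cm. QARS, the glutaminyl enzyme, had 56.0 and 52.5 FPKM. The ratios of 50-cm over 2-cm FPKM were 0.936 for IARS and 0.938 for QARS. WARS and LARS had log2 ratios of -0.04 and -0.0034. These genes kept their direction when the ratios were recentred, rescaled to equal sums or quantile normalized. Recentring and rescaling lowered every log2 ratio, so they could not turn a gene that was already lower. Quantile normalization lowered these 4 as well.

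The mitochondrial genes with the highest ratios were AARS2 and EARS2. AARS2, the mitochondrial alanyl enzyme, had 5.98 FPKM at 2 cm and 8.53 FPKM at 50 cm, a ratio of 1.43. EARS2, the mitochondrial glutamyl enzyme, had 5.76 and 8.16 FPKM, a ratio of 1.42. MARS2 had 3.12 and 4.16 FPKM (ratio 1.33). All of these lay well below the cytosolic levels, where few reads limit a ratio. YARS2 (mitochondrial tyrosyl) had 12.6 and 16.2 FPKM (ratio 1.29), and WARS2 had 3.31 and 4.11 FPKM (ratio 1.24). VARS2, at 57.8 and 68.9 FPKM, had a log2 ratio of 0.25, just short of 1.2-fold.

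At the other end were the mitochondrial arginyl and phenylalanyl enzymes. RARS2 had 15.8 FPKM at 2 cm and 11.5 FPKM at 50 cm, a ratio of 0.726 and rank 858 from the bottom among the 11057 features. FARS2 had 14.3 and 10.9 FPKM, a ratio of 0.765. They were the only members lower past 1.2-fold, although SARS2 and NARS2 joined them when FPKM was rescaled to equal sums. SARS2 (mitochondrial seryl) had 7.76 and 6.55 FPKM, and NARS2 (mitochondrial asparaginyl) 10.8 and 9.18 FPKM. HARS2 (mitochondrial histidyl) had 16.5 and 14.4 FPKM, a log2 ratio of -0.19. LARS2 (12.1 and 11.5 FPKM), IARS2 (59.8 and 56.6 FPKM) and TARS2 (37.9 and 38.2 FPKM) differed little between the cultures, and TARS2 turned to the lower side under all 3 other scalings. CARS2 (28.6 and 30.6 FPKM) and PARS2, the mitochondrial prolyl enzyme (7.36 and 8.14 FPKM), had log2 ratios of 0.10 and 0.15.

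For scale, each log2 ratio was set beside those of 500 features of like expression, the nearest on the log2 scale, which gives a range across genes and not a replicate error. The 5th to 95th percentile of those features leaves out 10% of them by construction, and 4 of 38 members (10.5%) lay outside it. FARSA, at 0.51, lay just above its upper bound of 0.50. AARS2, at 0.51, and EARS2, at 0.50, lay above bounds of 0.41 and 0.43. RARS2, at -0.46, lay below its bound of -0.41. FARS2, at -0.39, and YARS2, at 0.36, lay within their ranges, as did MARS2, whose range of -0.93 to 0.53 was among the widest.

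Within the cytosolic set, the classes of enzyme differed in their medians. All 10 class II genes were higher in 50-cm-high medium, from GARS at a log2 ratio of 0.10 to FARSA at 0.51, with a median of 0.22. Of the 9 class I genes, 5 were higher (4 after recentring or rescaling to equal sums, and 3 after quantile normalization), from IARS at -0.10 to VARS at 0.21, with a median of 0.01 that turned negative under each of those scalings. The class II count stayed at 10 of 10 under all 3. Of all features 52.6% were higher, and of those at cytosolic levels 65.5%, so the class I share of 55.6% lay near the background. EPRS, which holds a domain of each class, was left out of this split and had a log2 ratio of 0.18. The median of all features was 0.01, and that of features at cytosolic levels 0.07.

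Genes inside and outside the multisynthetase complex had similar medians, though a larger share of those outside it was higher in 50-cm-high medium. The 10 genes of the complex on the list, which are DARS, EPRS, IARS, KARS, LARS, MARS, QARS, RARS, AIMP1 and AIMP2, had a median log2 ratio of 0.18, and the 12 cytosolic genes outside it had a median of 0.21. None of the 10 passed 1.2-fold, where 16.2% of features at cytosolic levels were higher and 6.77% lower past it. Counted by direction, 7 of the 10 (70.0%) were higher, both scaffolds among them, against 65.5% of those features. Of the 12 cytosolic genes outside the complex, 11 (91.7%) were higher. AIMP1, a scaffold of the complex, had 48.0 FPKM at 2 cm and 54.8 FPKM at 50 cm. AIMP2, the other listed scaffold, had 51.3 and 61.4 FPKM, a ratio just under 1.2. The lower genes of the complex were IARS, QARS and LARS, all class I enzymes, and WARS, also class I, was the only lower cytosolic gene outside it. EEF1E1, the remaining scaffold of the complex and not among the 38 genes, had 31.4 and 39.8 FPKM, a log2 ratio of 0.34.

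The 12 cytosolic genes listed as known ATF4 targets had a median log2 ratio of 0.14, and the 8 others had one of 0.20. None of the 12 passed 1.2-fold, where 16.2% of features at cytosolic levels were higher and 6.77% lower past it. Both cytosolic genes past that limit, FARSA and FARSB, stand among the 8 and encode subunits of the same enzyme. ATF4 itself had 505 FPKM at 2 cm and 536 FPKM at 50 cm. Of the 19 genes above 1 FPKM in both cultures in a list of ATF4 and its targets, 9 (47.4%) were higher past 1.2-fold, against 15.0% of all features, and 3 (15.8%) lower, against 16.9%. The full list held 22 genes, but the targets ASNS and CHAC1 were not found among the features, and PHGDH was at 0 FPKM in both cultures. The median log2 ratio of the list was 0.20. TRIB3, a pseudokinase that feeds back on ATF4, had 46.5 and 66.5 FPKM. MTHFD2, of mitochondrial folate metabolism, had 96.3 and 137 FPKM. The amino acid transporter genes SLC7A5 (114 and 156 FPKM) and SLC7A1 (36.1 and 49.3 FPKM) and the transcription factor gene CEBPB (18.8 and 25.3 FPKM) followed. Lower in 50-cm-high medium were NUPR1 (161 and 95.3 FPKM), the mTOR inhibitor gene DDIT4 (59.9 and 38.5 FPKM) and the lipoprotein receptor gene VLDLR (4.66 and 3.59 FPKM). Genes of this list thus spread much wider than the cytosolic synthetases, from a log2 ratio of -0.76 to 0.52. Of 7 genes for eIF2 alpha, its kinases and its phosphatase subunits, EIF2S1 (39.7 and 50.8 FPKM) and PPP1R15B (24.4 and 29.7 FPKM) were higher past 1.2-fold (28.6%, against 15.0% of all features), and the median log2 ratio was 0.14.

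**Figure D3:**
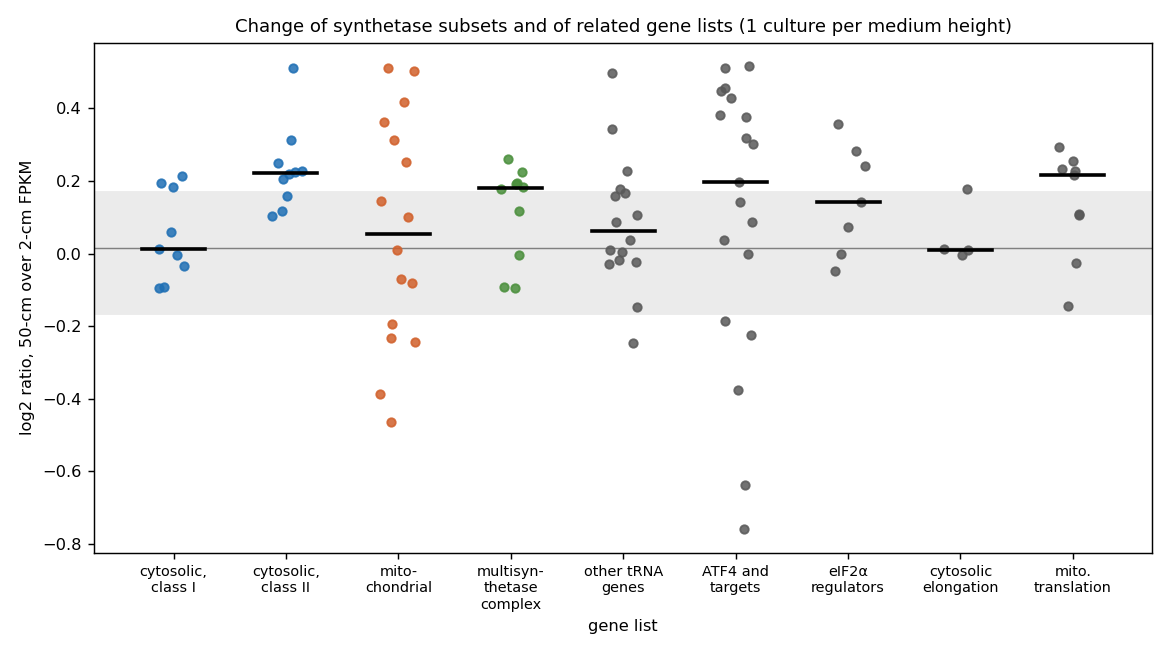
Log2 ratio of 50-cm over 2-cm FPKM (vertical axis) for the genes of each list (1 point per gene, spread sideways for legibility), with the list median as a black bar, 1 culture per medium height. The grey band is the interquartile range of all features and the grey line their median. All 10 class II points lie above 0, class I points lie on both sides, and the mitochondrial and ATF4 lists are the widest.

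The cytosolic and mitochondrial genes for the same amino acid moved alike in some pairs and apart in others. There are 13 amino acids with 1 cytosolic and 1 mitochondrial gene on the list. The cytosolic gene had the higher FPKM in all 13 and in both cultures, from 1.17 times the mitochondrial level (isoleucine, 50-cm-high medium) to 37.5 times (tryptophan, 2-cm-high medium). The log2 ratios had the same sign in 8 pairs, 6 with both genes higher and 2 with both lower in 50-cm-high medium, and opposite signs in 5. For alanine, cysteine, methionine, threonine, tyrosine and valine both genes were higher, and in all of these but threonine the mitochondrial log2 ratio was the larger. For arginine, asparagine, histidine and serine the cytosolic gene was higher and the mitochondrial gene lower. The signs of CARS, YARS and TARS2 turned under other scalings, so that the cysteine, tyrosine and threonine pairs are not firmly placed. The widest gap of the 13 was that of arginine, where RARS had a log2 ratio of 0.19 and RARS2 one of -0.46, so that the cytosolic level went from 4.51 to 7.11 times the mitochondrial level. Phenylalanine, with its separate cytosolic subunits, showed a still wider gap. FARSA stood at 2.41 times FARS2 in 2-cm-high medium and at 4.49 times in 50-cm-high medium. For tryptophan the order was the reverse, with WARS at -0.04 and WARS2 at 0.31. Over the 13 pairs, the median of the cytosolic minus the mitochondrial log2 ratio was -0.02, with the cytosolic log2 ratio above in 6 and below in 7. The difference between the group medians, 0.18 against 0.05, therefore does not appear pair by pair.

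**Figure D4:**
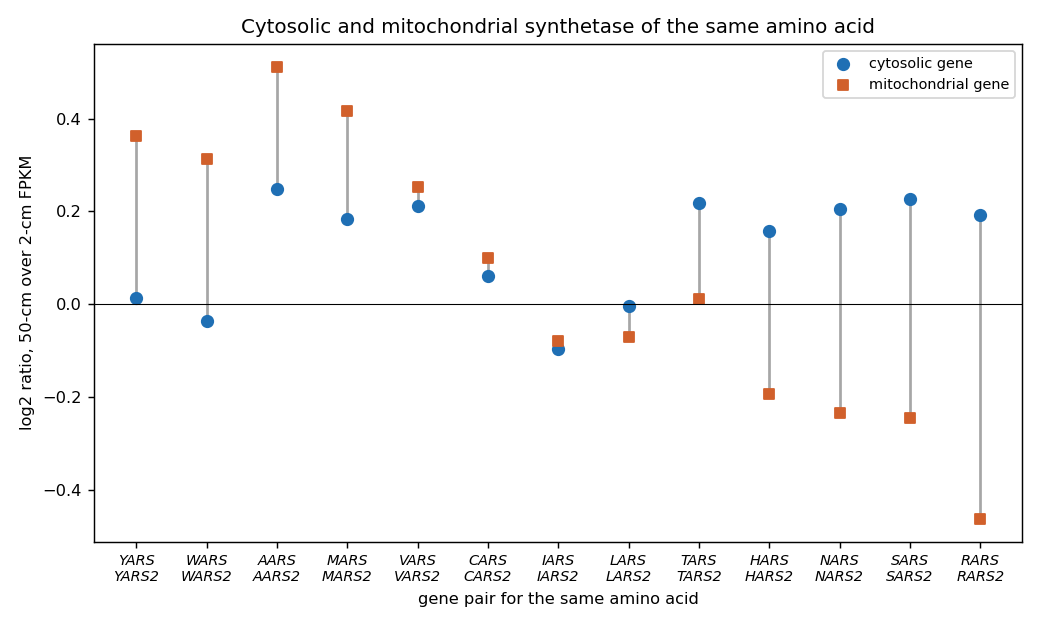
Log2 ratio of 50-cm over 2-cm FPKM (vertical axis) of the cytosolic gene (blue circle) and the mitochondrial gene (orange square) for 13 amino acids, ordered by their difference, 1 culture per medium height. Cytosolic points lie between -0.10 and 0.25, and mitochondrial points run from -0.46 for RARS2 to 0.51 for AARS2.

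Glutamine takes a different route in mitochondria, where EARS2 charges the glutamine tRNA with glutamate and an amidotransferase converts it. The amidotransferase genes, named here after their values were seen, differed by little between the cultures, with QRSL1 at 15.4 and 15.8 FPKM, GATC at 23.6 and 23.3 FPKM, and PET112 at 6.64 and 6.65 FPKM. Of the 16 further genes of aminoacylation and tRNA handling that were measured, 2 (12.5%) were higher past 1.2-fold, against 15.0% of all features, and 0 were lower, against 16.9%. They were EEF1E1, given above, and TRNT1, which adds the CCA end to tRNAs, at 15.7 and 22.1 FPKM. The median log2 ratio of that list was 0.06. Over 9 mitochondrial translation factor genes the median was 0.22, with MTRF1L past 1.2-fold at 3.15 and 3.86 FPKM, and over 4 cytosolic elongation factor genes it was 0.01 (below 0 under all 3 other scalings), with none past 1.2-fold.

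Some of these loci share ground with other genes. In RefSeq's annotation of the assembly UU_Cfam_GSD_1.0, which is not the CanFam3.1 build used for mapping, 38 of 38 genes were matched, 20 by the same symbol and 18 by the symbol with a 1 added. There, 10 of them overlap another protein-coding gene, among them HARS with HARS2, MARS with DDIT3 and ARHGAP9, AIMP2 with PMS2, and MARS2 with RFTN2. The libraries were stranded, but whether counting used the strand is not given in the sources used here. HARS and HARS2 are close paralogues besides, and the opposite signs of their log2 ratios (0.16 and -0.19) are uncertain to the extent that reads were divided between them.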

How the data were processed

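RNA from 1 MDCK culture per medium height was measured. The authors made stranded mRNA libraries, sequenced single-end reads and mapped them to CanFam3.1; per the submitters' processing notes, TopHat2 2.0.13, Bowtie2 2.2.3, SAMtools 0.1.19 and Cuffnorm 2.2.1 were used. The deposited FPKM values come from Cuffnorm, and its annotation and library scaling are not given in the sources used here. FPKM is a share of a library, so a change in total RNA per cell is not seen, and a low FPKM rests on few reads, whose number is unknown.

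Features with more than 1 FPKM in each culture were kept, and 50-cm FPKM was divided by 2-cm FPKM as deposited, with limits of 2-fold (the study's) and 1.2-fold. With 1 sample per group no test was possible. Members and lists were chosen with earlier results of these data known. The features of like expression level, as a second background, were added after the values were seen. Values are printed for the members past 1.2-fold, the 3 highest and lowest ratios in the cytosolic and mitochondrial groups, the 3 most and least abundant members, the scaffolds and the amino acid pairs, with the others added, and for up to 5 genes in each direction past 1.2-fold in each related list. The alternatives were pseudocounts of 0.1 and 1, minima of 0, 0.1 and 5 FPKM, recentring on the median, rescaling to equal sums and quantile normalization. Code was tested on simulated data. The code used pandas 2.3.3 and numpy 2.4.6 in Python 3.11.15, with figures from matplotlib 3.10.9. No sequence or position is given, since no genome of this build was used here.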

Additional observations from a re-analysis of the deposited data

How the results depend on the processing

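No paired analysis was possible because each medium height has 1 sample, and no sample could be left out. Of 296 values recomputed under 8 alternatives, 268 kept their direction and moved by at most 0.05 on the log2 scale (counts, by at most 1.5 times), 19 moved further and 9 changed sign. Many of the 268 could not move. Minima of 0 and 0.1 FPKM changed no value of a member or related list, since the genes in use already exceeded 1 FPKM. With a minimum of 5 FPKM, which removed MARS2 and WARS2, 3 mitochondrial genes were higher past 1.2-fold, the mitochondrial median log2 ratio was -0.030, the cytosolic minus mitochondrial median was 0.21 and the ATF4 list median was 0.30. Recentring on the median of all features, 0.01, gave medians of -0.0018 for class I and -0.0036 for the cytosolic elongation factors. Rescaling to equal sums gave -0.020 for class I, -0.021 for the elongation factors and -0.018 for all features, and put 4 members, all 4 mitochondrial, lower past 1.2-fold. Quantile normalization left 1 cytosolic gene higher past 1.2-fold and gave medians of 0.12 for the cytosolic genes, -0.0063 for the mitochondrial genes, 0.12 for the complex, 0.15 for the cytosolic genes outside it, -0.052 for class I, 0.16 for class II, 0.080 for the listed ATF4 targets, 0.14 for the other cytosolic genes, -0.040 for the elongation factors and 0.16 for the mitochondrial translation factors. Beyond what the alternatives themselves do, the cause was not tested. The cytosolic median stayed above the mitochondrial one under all 8 alternatives, by 0.12 to 0.21. Recentring and rescaling to equal sums shift every log2 ratio by the same amount, and minima of 0 and 0.1 FPKM leave the members unchanged. Those alternatives could therefore not change the difference. YARS, CARS and TARS2 changed direction under at least 1 of the 3 scalings, and the other 35 genes under none. Since recentring and rescaling to equal sums lowered every log2 ratio, they could turn only genes that were higher.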
